A study of Mus musculus with 30 samples.

Results

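The change in hippocampal gene expression between 6 h and 12 h after lipopolysaccharide (LPS) was taken from 4 libraries collected at 12 h and 4 collected at 6 h, chosen by their labels alone, which are 8 of the 30 samples of the series. LPS, a cell wall component of Gram-negative bacteria, was given under the skin at 0.5 mg/kg. Every mouse of the study was an adult male C57BL/6J of wild-type genotype, 8 to 12 weeks old when obtained and kept in a cage of its own. All of them, the saline mice included, had been through a regimen that models Gulf War Illness. They drank corticosterone (CORT, the main stress hormone of rodents, 200 mg/L in 0.6% ethanol) for 7 days, had 1 intraperitoneal dose of diisopropyl fluorophosphate (DFP, an organophosphate that blocks acetylcholinesterase, 4 mg/kg) on day 8, and then drank CORT in alternate weeks until 5 weeks had passed. The groups compared are therefore CORT+DFP+LPS at 6 h (mice A240, A241, A242 and A243) and CORT+DFP+LPS at 12 h (mice A258, A259, A260 and A261). CORT+DFP+Saline, collected at 6 h (3 hippocampal libraries), gives a level without LPS, and CORT+DFP+LPS at 24 h (4 libraries) a later level. No saline group at 12 h or 24 h and no mouse without CORT and DFP was analysed here. The labels give no clock time, so time since LPS and time of day at collection cannot be told apart. Each library came from 1 mouse, and no mouse was sampled at more than 1 time.

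LPS is sensed by Toll-like receptor 4. Its early output, driven by NF-kB, includes cytokines such as interleukin-1 beta together with the regulators that shut the response down. Another, slower output runs through type I interferon: secreted interferon acts on its receptor, STAT and IRF factors bind the interferon-stimulated response element in promoters, and a wide set of antiviral genes is switched on. In the brain a dose given in the periphery is read first by the endothelium, choroid plexus and meninges and then by microglia and astrocytes.

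The libraries held 18910055 to 26366879 counts at 6 h and 19058723 to 25730334 at 12 h, the saline libraries 26818493 to 29896427 and the 24 h libraries 20458591 to 24079020. The hippocampal label was checked against markers: Prox1 of dentate granule cells stood at 82.4 to 107 CPM (counts scaled to equal library size by TMM factors) in the 8 libraries and at 10.4 to 15.4 in the cortex of the same mice, and C1ql2, Dsp, Fibcd1 and Neurod6 were likewise higher without overlap, while Wfs1 overlapped (87.4 to 124 against 78.3 to 116). Libraries differed in choroid plexus RNA. Ttr, the transthyretin made by choroid plexus, stood at 341, 39.2, 25.4 and 30.0 CPM in A240 to A243 and at 247, 36.5, 21.1 and 2230 CPM in A258 to A261. The 16 choroid plexus and ependymal markers summed to 145 to 642 CPM at 6 h and 163 to 3360 at 12 h; none was called and their median log2 difference was 1.14. Mitochondrial transcripts took 7.16% to 8.01% of the counts at 6 h and 7.65% to 8.14% at 12 h.

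Of 17289 genes tested with edgeR's quasi-likelihood test, 197 (1.14%) were higher and 173 (1.0%) lower at 12 h than at 6 h at a Benjamini-Hochberg adjusted p under 0.05. Most changes were small. At least 2-fold differences were called for 33 genes upward (0.191%) and 14 downward (0.081%), and the median log2 difference was 0.51 among the genes called higher, -0.32 among those called lower and 0.003 over all genes. In 187 of the 197 all 4 libraries at 12 h lay above all 4 at 6 h, as did 4.98% of all genes, and in 161 of the 173 all lay below, as did 4.97%. Among called genes with a mean level of at least 1 log2 CPM, predicted genes left out, the largest rises were those of the interferon-induced genes Iigp1, Gbp4 and Cxcl10, then Scgb3a1, Ccl12 and the microglial gene Fcrls. The largest falls at that level were those of Il1b, the sulfotransferase gene Sult1a1, Pla2g3 and Prom1. Pla2g3 had a limma-voom adjusted p of 0.0699 with the mouse as a random effect over both tissues. Rtp1, at a lower level, fell by 2.58.

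The number of calls depended on the libraries and on the treatment of the mouse as a unit. A mouse as a random effect (replicate block) over both tissues, fitted with limma-voom, gave 69 higher and 82 lower. Every adjusted p given below with this block came from that limma-voom fit, not from edgeR. Without mouse A240, the 6 h library with the highest Ttr, the counts were 88 and 84, and without A241 108 and 102. Without A242 130 genes were higher, and without A243 113 were lower. Leaving out A261 and A240, the library with the most choroid plexus RNA in each group, gave 56 higher and 55 lower, and leaving out A258 as well gave 74 and 44. Scaled by library totals, 240 genes were higher and 138 lower. In each of the 8 fits that left out 1 compared library, 62 of the 197 (31.5%) and 65 of the 173 (37.6%) kept their call.

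**Figure D1:**
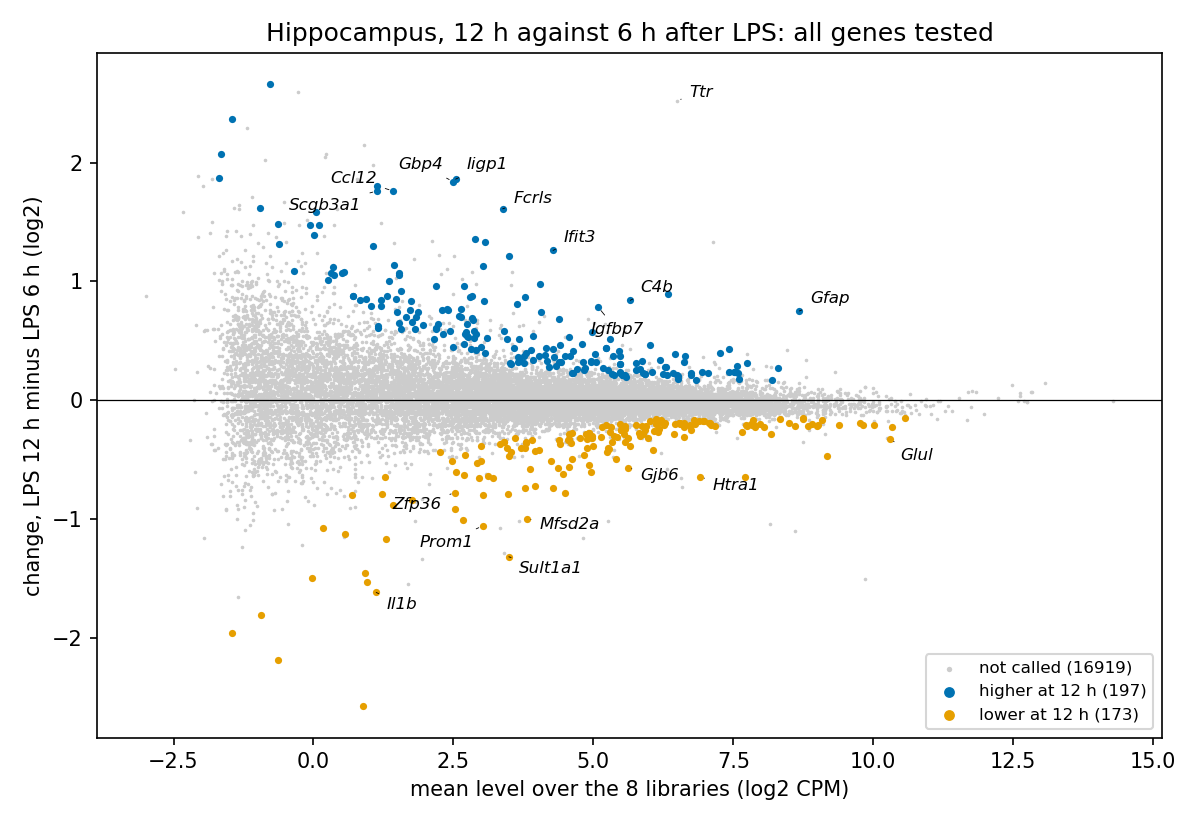
Change between 6 h and 12 h after LPS in the hippocampus (y axis, log2, 12 h minus 6 h) against the mean level over the 8 libraries (x axis, log2 CPM) for the 17289 genes tested; blue points are the 197 genes called higher at 12 h, orange points the 173 called lower, grey points the rest. Most called genes lie close to 0 and the large called rises are mostly interferon-induced and microglial genes; Ttr lies high at 2.52 but is grey, since 1 library carries it.

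Of the 42 gene lists examined, the interferon-inducible GTPases had the most called members for their number and, after the uncalled choroid plexus markers, the highest median. These proteins, the guanylate-binding proteins and the immunity-related GTPases, are loaded onto the vacuoles of intracellular parasites and bacteria. Of 16 tested, 12 were higher (75.0%) and 0 lower. The median log2 difference was 0.90, and in 14 all 12 h libraries exceeded all 6 h libraries. Shares over all genes tested, to be set beside the counts of this and every later list, were 1.14% called higher and 1.0% called lower. Without overlap of the groups were 4.98% upward and 4.97% downward. Iigp1, an immunity-related GTPase, stood at 2.08, 3.25, 3.82 and 3.15 CPM at 6 h and at 8.1, 11.7, 10.4 and 14.1 CPM at 12 h. The lowest 12 h library was above the highest at 6 h, with a log2 difference of 1.86 ± 0.22 (SE; edgeR adjusted p = 0.00027). Gbp4, a guanylate-binding protein, was nearly constant at 6 h, at 3.18, 3.08, 2.85 and 3.05 CPM, and spread at 12 h, at 4.83, 15.1, 11.3 and 12.3 CPM. A258 was the low library of the 12 h group, and still above all of the 6 h group (log2 difference 1.84 ± 0.27, edgeR adjusted p = 0.00271). Gbp7 went from 5.28 ± 0.789 (SD, n = 4) to 9.73 ± 1.79 CPM, the most stable call of the family: it was made in all 19 alternative fits. Gbp5 (log2 difference 0.83) and Igtp (0.96) were called in each fit that left out 1 library.

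The other called members were Gbp2, Gbp6, Irgm1, Irgm2, Ifi47, Tgtp1 and Tgtp2, with log2 differences of 0.54 for Irgm1 up to 1.36 for Tgtp1. All 7 lost their call without A240, Tgtp1 going from an edgeR adjusted p of 0.0156 to 0.0594 and Gbp2 from 0.043 to 0.132. Gbp2 kept it only without A260, Gbp6 only without A260 or A242 and Tgtp2 only without A258 or A260; Ifi47 and Irgm1 also lost it without A259 or A261, and Irgm2 without A261. Tgtp1 and Tgtp2 are near-identical copies, so reads may be split between them. Several of these genes are neighbours in the genome (build GRCm38): Gbp2, Gbp5 and Gbp7 lie on chromosome 3, and Igtp, Irgm1, Irgm2, Ifi47, Tgtp1 and Tgtp2 on chromosome 11. The list counted 5 called genes without A240, 7 without A259 or without A261, 3 without A261 and A240, and 3 with the replicate block (the 9 others then at an adjusted p of 0.069 to 0.452, Iigp1 at 0.0807, Gbp4 at 0.274 and Gbp5 at 0.418), while no member changed sign in any of these fits.

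Of 43 antiviral effectors tested 15 were higher (34.9%, against 1.14% of all genes) and 0 lower, with a median log2 difference of 0.57. In 20 members all 12 h libraries lay above all 6 h libraries, as in 4.98% of all genes. Ifit3, which works with Ifit1 on viral RNA, stood at 11.5, 12.9, 12.9 and 12.9 CPM at 6 h. At 12 h it stood at 36.9, 34.7, 23.3 and 26.0 CPM, so that the lowest 12 h library was well above the highest at 6 h (log2 difference 1.26 ± 0.22, edgeR adjusted p = 0.0117). Ifit1 (1.13), Ifit3b (1.21) and the ubiquitin ligase gene Trim25 (0.67) were called in each fit that left out 1 library; Ifit3 and Ifit3b are close copies, so their reads may be shared. Rsad2, which encodes viperin, rose by 1.14 on the log2 scale (edgeR adjusted p = 0.0263). Without any 1 library other than A260 its edgeR adjusted p was 0.0542 to 0.0863. With the replicate block its limma-voom adjusted p was 0.0905. Isg15, an interferon-induced ubiquitin-like protein, was at 3.50 ± 0.42 and 5.25 ± 1.22 CPM (SD, n = 4), with A260 inside the 6 h range, and was not called (edgeR adjusted p = 0.28). The list counted 8 called members without A258, 6 without A259, 4 without A240, 7 without A241, 9 without A242, 3 without A261 and A240, and 4 with the replicate block.

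Upstream of these effectors little moved. Of 18 interferon receptor, STAT and IRF genes 1 was higher, Usp18, a protease that removes ISG15 from proteins and dampens interferon receptor signalling. Usp18 stood at 1.21, 1.42, 1.33 and 1.23 CPM at 6 h and at 3.69, 4.17, 2.78 and 2.25 CPM at 12 h (log2 difference 1.30 ± 0.24, edgeR adjusted p = 0.00415, and 0.069 with the replicate block). Irf7 was at 8.44 ± 1.82 and 9.56 ± 1.84 CPM (SD, n = 4), with overlapping libraries and an edgeR adjusted p of 0.738. Of 20 genes of antigen presentation by MHC class I, 1 was higher (5.0%, against 1.14% of all genes). This was Tap1, the peptide transporter, at 3.75, 4.13, 4.64 and 3.8 CPM and then 5.25, 7.2, 6.46 and 8.49 CPM (log2 difference 0.76 ± 0.15, edgeR adjusted p = 0.00798). In level, Irf7 averaged 0.806 CPM in saline, 8.44 at 6 h, 9.56 at 12 h and 11.1 at 24 h.

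The promoters of these genes were searched for the core of the interferon-stimulated response element, GAAANNGAA on either strand, in the window from 250 bases before to 50 bases after each RefSeq gene start (build GRCm38.p6). The core was found in 9 of 11 promoters of the GTPase genes (81.8%) and in 20 of 37 of the antiviral effectors (54.1%), against 8.56% of all 32851 promoters. Among all genes called higher, 23 of 166 promoters held it (13.9%), and among genes called lower 18 of 170 (10.6%). In the interferon lists 15 of 21 promoters (71.4%) of the members called and 14 of 27 (51.9%) of those not called held it, a difference that was not tested. None of the 20 promoters of the homeostatic microglia list held it. A kappaB core (GGGNNTTCC) was found in 5.82% of all promoters. The stretches below were picked from genes that both rose and held a match. Ifi47, Fcrls and Olfml3 also rose and held none. Among genes that fell, Mfsd2a held 1 match, and Il1b, Lcn2, Sult1a1 and Zfp36 held none. Each stretch is written 5′ to 3′ along the gene's strand, from RefSeq, with the matches to the response element core in capitals.
Gbp5, chr3:142496740-142496808, plus strand: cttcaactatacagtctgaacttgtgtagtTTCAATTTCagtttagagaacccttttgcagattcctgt
Gbp7, chr3:142530254-142530322, plus strand: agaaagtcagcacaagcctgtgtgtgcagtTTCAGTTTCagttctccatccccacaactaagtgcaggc
Igtp, chr11:58199492-58199560, plus strand: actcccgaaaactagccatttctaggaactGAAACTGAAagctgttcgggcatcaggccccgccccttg
Ifit1, chr19:34640750-34640843, plus strand: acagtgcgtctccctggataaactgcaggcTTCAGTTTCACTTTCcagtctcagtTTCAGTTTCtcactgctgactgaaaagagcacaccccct
Ifit3, chr19:34583344-34583465, plus strand: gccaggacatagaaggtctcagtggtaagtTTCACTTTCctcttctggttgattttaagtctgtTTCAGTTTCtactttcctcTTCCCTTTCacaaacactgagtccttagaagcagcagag
Cxcl10, chr5:92349064-92349132, minus strand: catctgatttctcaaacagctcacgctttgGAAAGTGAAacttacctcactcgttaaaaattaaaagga
The first matched base lies 164 bases before the start in Gbp5, 52 in Gbp7, 34 in Igtp and 213 in Cxcl10; Ifit1 and Ifit3 each carry 3 matches. The promoter of Cxcl10 also held a kappaB core, 103 bases before the start. A match describes the letters of the window and does not show binding.

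Of 16 cytokine and chemokine genes tested, 3 were higher and 1 lower. Ccl12, a monocyte-attracting chemokine, stood at 1.29, 1.33, 1.73 and 1.28 CPM at 6 h and at 5.3, 5.02, 5.28 and 3.51 CPM at 12 h. The groups did not overlap and the log2 difference of 1.76 ± 0.22 (edgeR adjusted p = 6.8e-05) was called in all 19 alternative fits. Cxcl10, the interferon-induced ligand of CXCR3, went from 1.13 ± 0.294 to 4.07 ± 1.27 CPM (SD, n = 4), a log2 difference of 1.80 with an edgeR adjusted p of 0.0251; without any 1 library other than A260 and A261 it was 0.0571 to 0.0773. Il18bp, which neutralizes interleukin-18, rose by 0.79 on the log2 scale. Il1b, which encodes interleukin-1 beta, moved the other way: 1.89, 6.33, 2.7 and 4.81 CPM at 6 h, and 0.935, 1.04, 1.6 and 1.43 CPM at 12 h. All 12 h libraries were below all 6 h libraries, although A240 came close (log2 difference -1.62 ± 0.33, edgeR adjusted p = 0.0144, 0.0519 without A259 and 0.208 with the replicate block). Tnf and Ccl2 were low and did not pass the test: Tnf averaged 0.606 and 0.454 CPM and Ccl2 1.95 and 1.49 CPM, with edgeR adjusted p of 0.68 and 0.771.

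Genes of NF-kB feedback and the early inflammatory response leaned downward, with 0 of 26 higher, 3 lower, 20 below 0 and a median of -0.14. Zfp36, whose product tristetraprolin destroys cytokine messenger RNA, stood at 5.79, 8.29, 7.09 and 8.88 CPM at 6 h and at 4.26, 5.26, 3.87 and 4.08 CPM at 12 h (log2 difference -0.78 ± 0.13, edgeR adjusted p = 0.00175). The 12 h libraries lay between the 6 h level and the saline mean of 3.42 CPM, and the call was made in all 19 alternative fits. Ptgs2, the inducible cyclooxygenase, fell by 0.33 and Relb, an NF-kB subunit, by 0.35 on the log2 scale. Ptgs2 averaged 31.3 CPM in saline, 33.2 at 6 h, 26.4 at 12 h and 26.2 at 24 h. Unlike Zfp36, it was thus near saline at 6 h and fell below that level. Relb lost its call without A240, A241, A242, A258, A260 or A261 (edgeR adjusted p 0.0515 to 0.0873). Nfkbia, the inhibitor of NF-kB, was at 23.1 ± 2.84 and 20.8 ± 0.781 CPM (SD, n = 4) and was not called (edgeR adjusted p = 0.563). Without A261 the list counted 6 lower genes. Lcn2, an iron-trapping acute phase protein, stood at 9.88, 13.3, 12.7 and 10.6 CPM at 6 h and at 7.89, 6.5, 5.48 and 9.51 CPM at 12 h. The ranges touched closely without overlap (log2 difference -0.66 ± 0.15, edgeR adjusted p = 0.0173), and without A259, A241 or A242 the adjusted p was 0.0556 to 0.0803. With the replicate block Lcn2 was at an adjusted p of 0.263 and Ptgs2 at 0.167.

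A part of the microglial markers rose. In bulk tissue more cells of a type and more RNA per cell cannot be told apart. Of 22 genes that mark microglia in the healthy brain, 6 were higher and 0 lower, with 18 above 0 and a median of 0.25. Fcrls, an Fc receptor-like gene of resident microglia, stood at 7.11, 4.13, 6.78 and 6.1 CPM at 6 h and at 19.1, 13.9, 20.1 and 20.2 CPM at 12 h (log2 difference 1.61 ± 0.28, edgeR adjusted p = 0.0128). Olfml3, a secreted microglial protein, stood at 12.3, 9.79, 13.7 and 11.1 CPM at 6 h and at 25.5, 20.7, 23.4 and 22.9 CPM at 12 h. Its 6 h mean of 11.7 CPM was that of saline, and all 12 h libraries lay above the 6 h group (log2 difference 0.98 ± 0.14, edgeR adjusted p = 0.00169, and 0.13 with the replicate block). Tmem119 rose from 10.3 ± 2.73 to 18.6 ± 0.385 CPM and Cx3cr1, the fractalkine receptor, from 33.1 ± 2.73 to 47.1 ± 1.31 CPM (SD, n = 4), with edgeR adjusted p of 0.0232 and 0.0144. Tmem119 lost its call without A240, A243, A258, A259 or A261 (0.056 to 0.0681) and Cx3cr1 without A241 (0.0527). P2ry12, the purinergic receptor that guides microglial processes, stood at 7.98, 4.38, 8.77 and 8.72 CPM and at 8.83, 7.5, 11.1 and 10.3 CPM; the groups overlapped and it was not called (edgeR adjusted p = 0.604). The summed level of the 22 markers, 1470 to 1640 CPM at 6 h and 1480 to 1610 at 12 h, overlapped. Fcrls, Olfml3, Tmem119, Cx3cr1 and P2ry12 were a small part of this sum. It was carried by more abundant members and does not show whether microglial RNA as a whole changed. Without A261 and A240 2 members were called, and 2 with both tissues in 1 fit.

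Complement and Fc receptor genes, by which targets are tagged and engulfed, gave calls in 1 direction: 6 of 17 complement genes were higher and 0 lower (median 0.29), and 3 of 10 Fc gamma receptor genes and signalling partners were higher (median 0.36). Itgam, which is also the complement receptor chain CD11b, stood at 2.12, 1.92, 1.78 and 1.87 CPM and at 3.64, 4.17, 4.74 and 3.63 CPM (log2 difference 1.07 ± 0.20, edgeR adjusted p = 0.00512). C4b, the complement component made largely by astrocytes, stood at 39, 41.2, 36.2 and 34.9 CPM and at 59.5, 83.6, 66.8 and 61.3 CPM, with A259 highest. Its log2 difference of 0.84 ± 0.12 (edgeR adjusted p = 0.00291) was called in all 19 alternative fits; C4a is a close copy. C1qb rose by 0.30 and Fcgr1, the high-affinity IgG receptor, by 0.56 on the log2 scale, and without A240 both lost their call (0.0618 and 0.104), as they did without A243 or A258, and C1qb also without A241. Without A240 the lists counted 3 and 0 genes, without A241 3 and 1, without A261 and A240 3 and 0, and with the replicate block 2 and 1; Itgam, C1qb and Fcgr1 then had an adjusted p of 0.213, 0.513 and 0.0905. Markers of infiltrating cells gave no call: of 12 neutrophil and monocyte markers 0 were called by edgeR (2 at an unadjusted p under 0.05, 0 by DESeq2; 9 below 0, median -0.25), and their 20 listed genes summed to 31.1 to 35.3 CPM at 6 h and 27.3 to 30.9 at 12 h. Of 18 lymphocyte markers 2 had enough counts to be tested and 6 were at 0 in all 8 libraries.

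**Figure D2:**
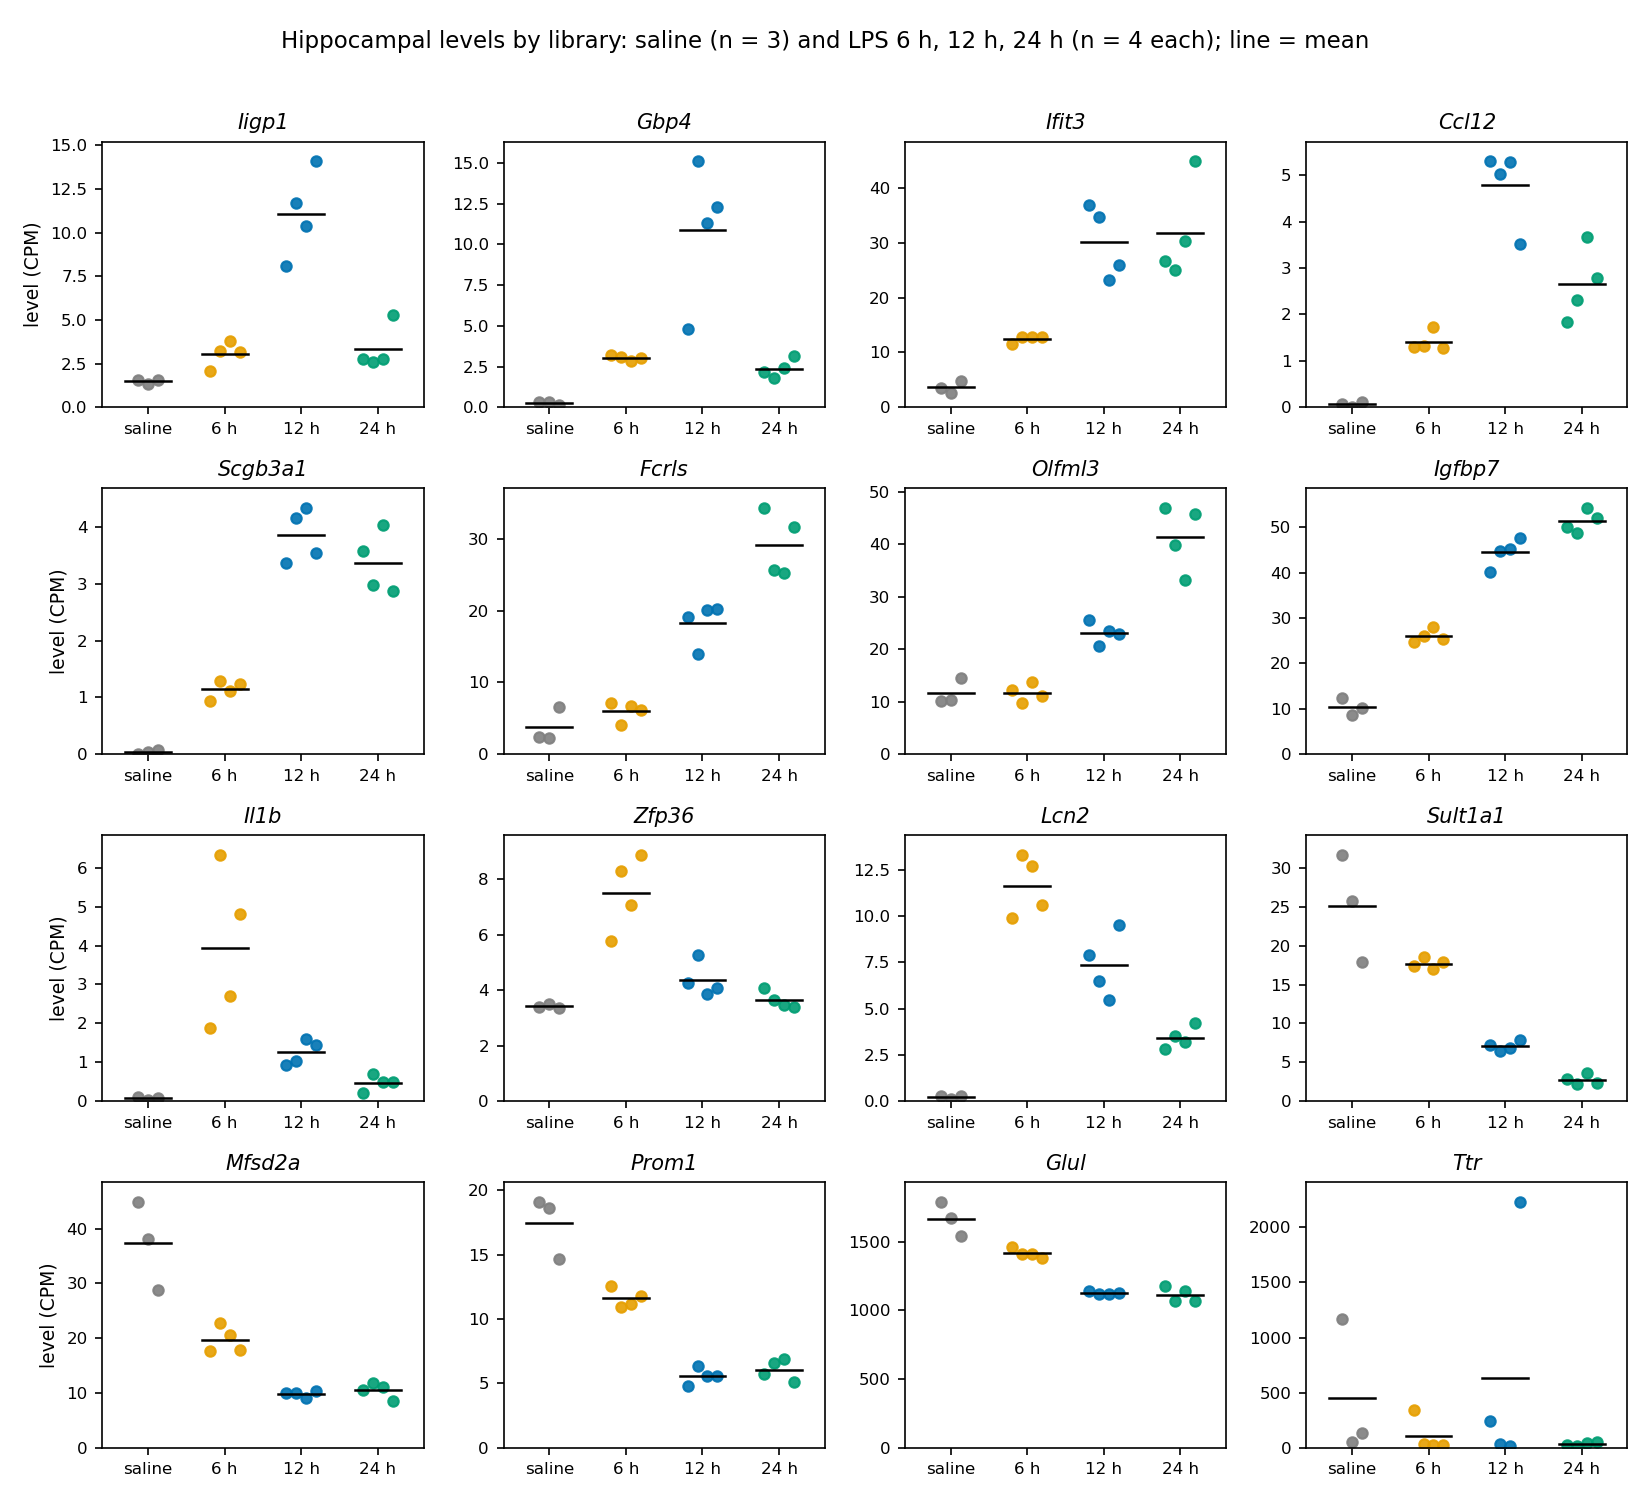
Level of 16 genes (CPM, linear axes from 0) in every hippocampal library: saline (3 libraries) and 6 h, 12 h and 24 h after LPS (4 libraries each); points are libraries and lines group means. Iigp1 and Gbp4 stand highest at 12 h, Fcrls and Olfml3 have their highest means at 24 h, Il1b, Zfp36 and Lcn2 stand highest at 6 h, and Ttr is carried by single libraries.

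Astrocyte genes moved in both directions. Gfap, the intermediate filament of reactive astrocytes, stood at 307, 345, 324 and 295 CPM at 6 h and at 519, 601, 506 and 515 CPM at 12 h. All 12 h libraries were far above the 6 h group (log2 difference 0.75 ± 0.13, edgeR adjusted p = 0.0142, and 0.0507 without A240). Of 29 reactive astrocyte genes 4 were higher (Gfap, Cxcl10, Iigp1 and Gbp2, the last 3 of them interferon-induced) and 1 lower (Lcn2). Without A240 1 of the 4 was called, and 2 without A258, A259, A241, A242 or A243. Of 22 genes of astrocyte homeostasis 2 were higher and 4 lower. Aqp4, the water channel of astrocyte endfeet, rose from 76.6 ± 3.86 CPM to between 94.8 and 107 CPM and Slc4a4, a sodium bicarbonate cotransporter, from 134 ± 4.36 to 176 ± 13.1 CPM (SD, n = 4). Glul, glutamine synthetase, stood at 1460, 1410, 1410 and 1380 CPM and at 1140, 1120, 1120 and 1130 CPM, a fall with little spread (log2 difference -0.33 ± 0.04, edgeR adjusted p = 0.000158). Gjb6, connexin 30 of astrocyte gap junctions, stood at 59.7, 61.5, 56 and 60.3 CPM and at 42.7, 38.1, 37.7 and 42 CPM (log2 difference -0.57 ± 0.08, edgeR adjusted p = 0.00104). Aldoc and Ndrg2 each fell by 0.21, with a limma-voom adjusted p of 0.167 and 0.202 with the replicate block. Aqp4, Slc4a4, Glul and Gjb6 were called in all 19 alternative fits.

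Vascular genes split as well. Igfbp7, a secreted protein of vessel walls, had the smallest adjusted p of the comparison: 24.6, 26, 28 and 25.3 CPM at 6 h and 40.1, 44.8, 45.1 and 47.7 CPM at 12 h (log2 difference 0.78 ± 0.08, edgeR adjusted p = 9e-06). Vwf, von Willebrand factor of endothelial cells, stood at 17.1, 15.5, 17 and 17.1 CPM and at 21.2, 31.6, 29.3 and 24.5 CPM (log2 difference 0.68 ± 0.11, edgeR adjusted p = 0.00293, but 0.217 with both tissues in 1 fit and 0.297 with the replicate block). Of 28 genes of endothelial activation and adhesion 2 were higher (Vwf and Apln, 7.14%) and 1 lower (3.57%), against 1.14% and 1.0% of all genes. The lower gene was Selp, the platelet and endothelial selectin, which fell by 0.84 (edgeR adjusted p = 0.0324). Selp lost its call without any 1 library other than A261 (0.055 to 0.102). With the replicate block Selp was at 0.105 and Apln at 0.0615. Sele, the endothelial selectin, stood at 5.3 ± 1.43 and 3.41 ± 0.937 CPM (SD, n = 4) and was not called (edgeR adjusted p = 0.219). Of 32 genes of the blood-brain barrier and endothelial identity 0 were higher and 4 lower (Slc19a3, Mfsd2a, Ly6c1 and Ly6a), with a median of -0.01. Mfsd2a, the transporter of docosahexaenoic acid at the barrier, stood at 17.7, 22.8, 20.6 and 17.8 CPM and at 10.1, 9.98, 9.08 and 10.4 CPM (12 h mean over 6 h mean 0.501, edgeR adjusted p = 0.000928). Slc19a3, a thiamine transporter, fell from 1.52 ± 0.283 to 0.532 ± 0.131 CPM and Ly6c1 by 0.61 on the log2 scale; Slc19a3 had an edgeR adjusted p of 0.0142, and 0.0623 without A240, where the list counted 2 lower genes. Ly6a lost its call without A258, A259, A260, A240, A241 or A242 (0.0544 to 0.108), and with the replicate block Slc19a3 was at 0.0809 and Ly6a at 0.182. Of 15 markers of meningeal and perivascular fibroblasts 3 were higher (Col3a1, Ogn and Islr), with 14 above 0 and a median of 0.49; all 3 lost their call without A241 (edgeR adjusted p 0.0541 to 0.0886), Col3a1 also without A259, A242 or A243 and Ogn without A259, A261, A240 or A242. With the replicate block Col3a1 was at 0.0697 and Ogn at 0.131. Their sum was 150 to 184 CPM at 6 h and 166 to 273 at 12 h, and the part of fibroblast content in the vascular results was not tested.

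Genes that respond to glucocorticoid hormone were lower where they moved. Of 32 tested, 0 were higher and 4 lower (Sult1a1, Mfsd2a, Mt1 and Gpd1), with 26 below 0 and a median of -0.10. Sult1a1, a phenol sulfotransferase, stood at 17.4, 18.5, 17 and 17.9 CPM at 6 h and at 7.22, 6.46, 6.81 and 7.84 CPM at 12 h. The spread within each group was under 1 CPM (SD 0.631 and 0.594, n = 4), and the log2 difference was -1.32 ± 0.15 (edgeR adjusted p = 0.000211, and 0.0513 with both tissues in 1 fit). Mt1, a metal-binding metallothionein, fell by 0.65 (edgeR adjusted p = 0.016, and 0.0559 without A259 or 0.0552 without A240). Gpd1 lost its call without A258, A259, A261, A240, A241 or A242 (0.0666 to 0.126) and with the replicate block (0.185). Fkbp5, the glucocorticoid receptor cochaperone, stood at 83.4, 88.1, 76.8 and 72.6 CPM and at 82, 68.1, 80 and 71.6 CPM, with full overlap (edgeR adjusted p = 0.722). Plin4, a lipid droplet protein, averaged 5.41 ± 1.97 and 1.89 ± 0.324 CPM without overlap and did not pass the test (edgeR adjusted p = 0.149). Without A240 the list counted 2 lower genes. Prom1, which encodes the membrane glycoprotein prominin-1 and was in no list, stood at 12.6, 10.9, 11.2 and 11.8 CPM and at 4.78, 6.36, 5.6 and 5.59 CPM (log2 difference -1.06 ± 0.11, edgeR adjusted p = 1.3e-05). Htra1, a secreted serine protease, fell by 0.65 from 151 ± 8.53 to 96.2 ± 4.44 CPM, and Prodh, proline dehydrogenase, by 0.78.

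**Figure D3:**
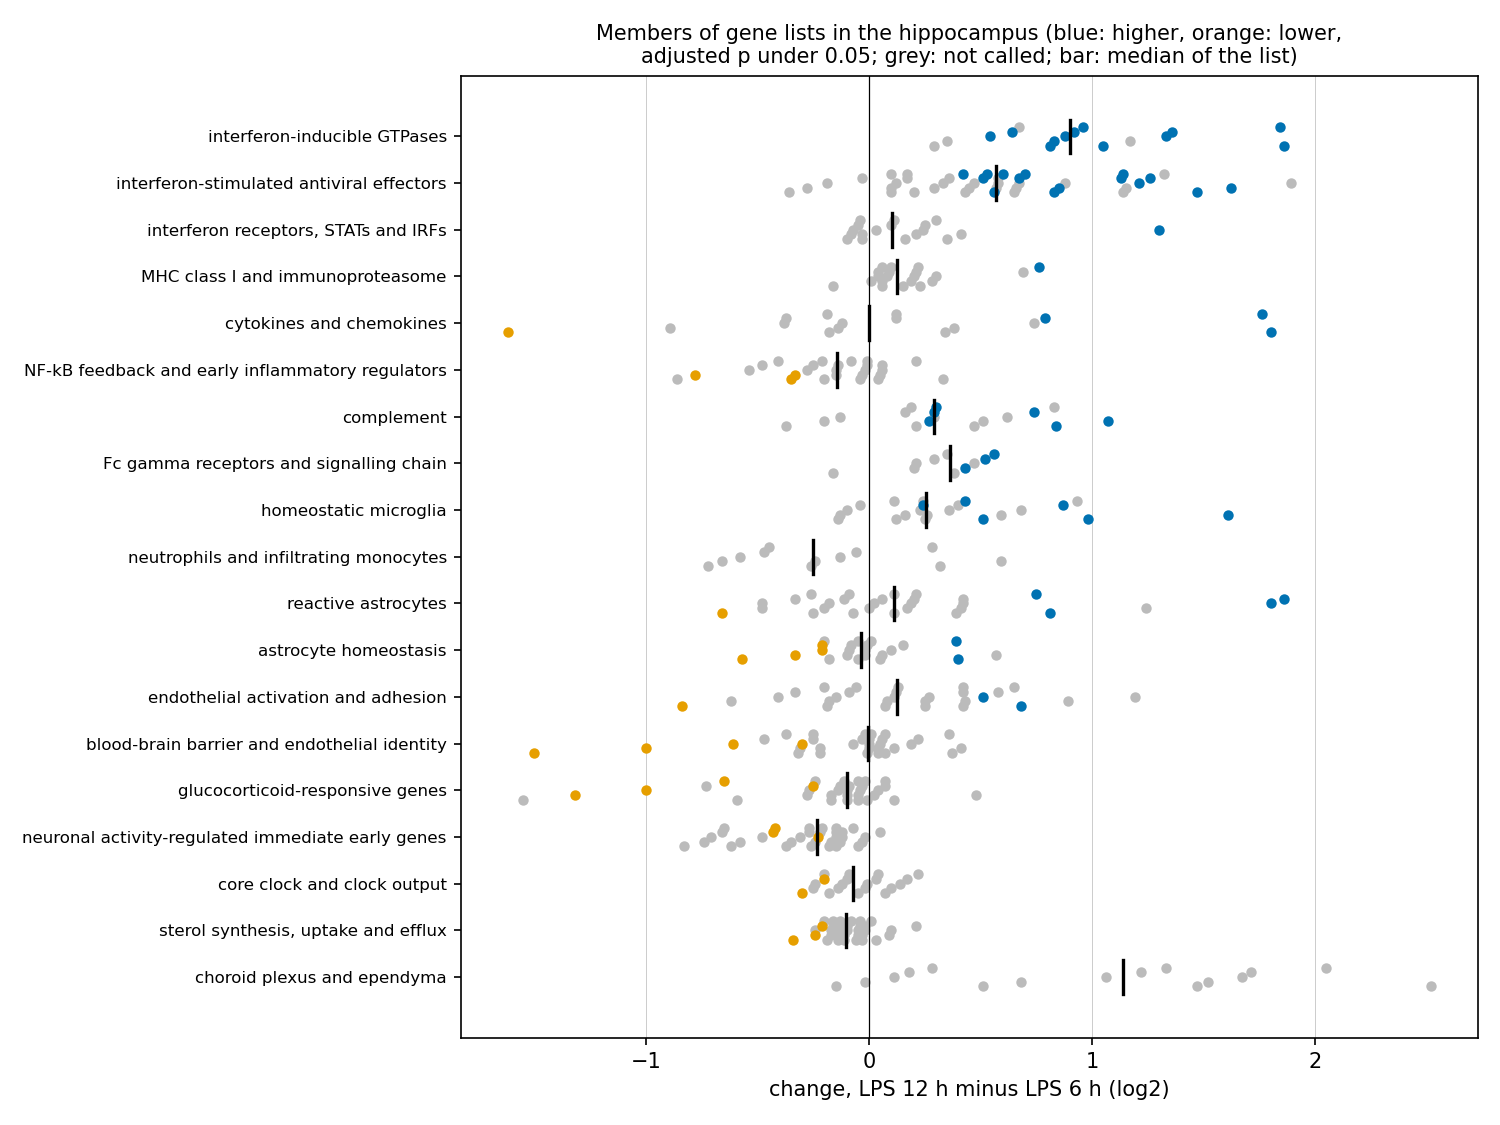
Change between 6 h and 12 h after LPS (x axis, log2) for the tested members of 19 gene lists (rows); blue and orange points are members called higher and lower at an adjusted p under 0.05, grey points were not called, and black bars are list medians. The GTPase list has 12 blue points and no point below 0, and the choroid plexus list lies to the right with every point grey.

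Of 34 immediate early genes driven by neuronal activity 33 lay below 0 (median -0.23) and 3 were called lower: Junb, Gadd45g and Vgf. In 10 of the 34 all 12 h libraries lay below all 6 h libraries, against 4.97% of all genes, and 19 had an unadjusted p under 0.05, against 2595 of the 17289 genes tested. A lean below 0 was not particular to this list. It was also seen in 30 of 32 nuclear genes of oxidative phosphorylation (median -0.06), 29 of 34 sterol genes and 22 of 28 synaptic genes (median -0.05). The median over all genes was 0.003, and 11 of 13 mitochondrially encoded genes lay above 0. Junb stood at 76.9, 80.9, 77 and 74.2 CPM and at 68.1, 52.2, 56.8 and 54.2 CPM, with A258 nearest to the 6 h group (log2 difference -0.42 ± 0.08, edgeR adjusted p = 0.00996, and 0.342 with the replicate block). Gadd45g lost its call without A258, A259, A260, A240 or A241 (0.0517 to 0.113), and Vgf without any 1 library other than A259 (0.0653 to 0.108) and with the block (0.275). Without A260 or without A241 1 of the list was called. Of 28 synaptic genes 1 was lower (3.57%, against 1.0% of all genes). This was Camk2b, the kinase subunit of excitatory synapses, which fell by 0.23 (edgeR adjusted p = 0.023, and 0.0522 to 0.105 without A240, A241, A258 or A259). Chrm1, the M1 muscarinic acetylcholine receptor, stood at 272 to 294 CPM at 6 h and at 227 to 260 CPM at 12 h, the only called gene of 15 in the cholinergic list (log2 difference -0.23 ± 0.05, edgeR adjusted p = 0.0081, and 0.0833 with the replicate block). Of 20 clock genes 2 were lower, Cry2 (by 0.20) and Usp2 (by 0.30), and both lost their call without A240 (edgeR adjusted p 0.0601 and 0.0625), Cry2 also without A261 (0.0629) and with the replicate block (0.116). Per1 averaged 64.3 ± 4.72 and 54.8 ± 4.36 CPM, Dbp 33 ± 1.95 and 38.3 ± 1.12 CPM and Arntl 22.8 ± 2.1 and 20.6 ± 0.899 CPM (SD, n = 4); none was called (edgeR adjusted p 0.0809, 0.141 and 0.559). Of 34 sterol genes 3 were lower, with a median of -0.11. Of these, Insig1 lost its call without A258, A259, A260, A240 or A243 (0.0746 to 0.164) and with the replicate block (0.0636), and Fdft1 without A258, A259, A260, A241, A242 or A243 (0.0584 to 0.1).

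The levels at 24 h and in the saline group are set beside these changes. The saline mice were collected at 6 h, so 24 h against saline differs in time of collection as well as in LPS. Of the 197 genes higher at 12 h than at 6 h, 145 (73.6%) were above saline at 24 h and 0 below, where 6.76% and 6.6% of all genes were above and below; the 145 are 12.4% of the genes above saline. Of the 173 lower genes 116 (67.1%) were below saline at 24 h and 8 (4.62%) above, which are 10.2% and 0.685% of the genes below and above saline. These comparisons share no library, but they come from the same fit and share its estimate of each gene's spread, so they are not independent. Comparisons of 24 h with 12 h, which share the 12 h libraries, called 153 genes higher (0.885%) and 217 lower (1.26%). The GTPases stood highest at 12 h: Gbp4 averaged 0.256, 3.04, 10.9 and 2.38 CPM in saline and at 6, 12 and 24 h, and Iigp1 1.49, 3.08, 11.1 and 3.35 CPM, with edgeR adjusted p of 0.000849 and 0.000384 for 24 h against 12 h. Ifit3 was at 3.62, 12.6, 30.2 and 31.7 CPM, and did not differ by the test between 12 h and 24 h (edgeR adjusted p = 0.902). Means of microglial genes were higher still at 24 h: Fcrls was at 3.8, 6.03, 18.3 and 29.2 CPM, Olfml3 at 11.7, 11.7, 23.1 and 41.5 CPM and Itgam at 1.38, 1.92, 4.04 and 8.59 CPM, of which Olfml3 and Itgam passed the test between 12 h and 24 h (edgeR adjusted p 0.00198 and 0.00103) and Fcrls did not (0.212). Zfp36 was at 3.42, 7.51, 4.37 and 3.64 CPM, back near saline. Sult1a1 had a lower mean in each successive group, at 25.2, 17.7, 7.08 and 2.74 CPM. Mfsd2a, at 37.3, 19.7, 9.89 and 10.5 CPM, and Glul, at 1670, 1420, 1130 and 1110 CPM, levelled off after 12 h.

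In the frontal cortex of the same mice, 105 genes were higher (0.614%) and 105 lower (0.614%) at 12 h than at 6 h, of 17111 tested. Of the hippocampal genes called higher and tested in both tissues, 39 were also called higher in cortex, 19.9% of the hippocampal and 37.9% of the cortical list, and 0 were called lower. Of those called lower, 39 were also called lower in cortex (22.5% and 38.6%) and 0 higher. The sign of the cortical change was the same for 174 of 196 genes higher in hippocampus (88.8%) and 156 of 173 lower (90.2%), against 61% of all 16733 genes tested in both, where the mice are shared. No gene passed the test of the difference between tissues (0 of 17650, 0.0%, edgeR; 1281 at an unadjusted p under 0.05; DESeq2 called 11). Fcrls changed by 1.61 in hippocampus and 2.12 in cortex on the log2 scale, Scgb3a1 by 1.76 and 2.24, Ifit3 by 1.26 and 1.27, and Glul by -0.33 and -0.34. Not every list had medians of the same sign. Clock genes were at -0.07 in hippocampus and 0.09 in cortex, and fibroblast markers at 0.49 and -0.15. Choroid plexus markers were at 1.14 and -0.61, and mitochondrially encoded genes at 0.07 and -0.37. Cry2 changed by -0.20 and 0.14 (edgeR adjusted p of the tissue difference 0.236). Members of the GTPase list had smaller cortical values, Gbp4 at 0.85, Iigp1 at 1.07 and Tgtp1 at 0.36, none called in cortex, and the adjusted p of the tissue difference was 0.84, 0.843 and 0.80. Scgb3a1, a secretoglobin known from airway epithelium, stood in the hippocampus at 0.946, 1.29, 1.12 and 1.23 CPM at 6 h and at 3.38, 4.17, 4.34 and 3.55 CPM at 12 h (log2 difference 1.76 ± 0.19, edgeR adjusted p = 1.3e-05), with 0.037 CPM in saline.

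**Figure D4:**
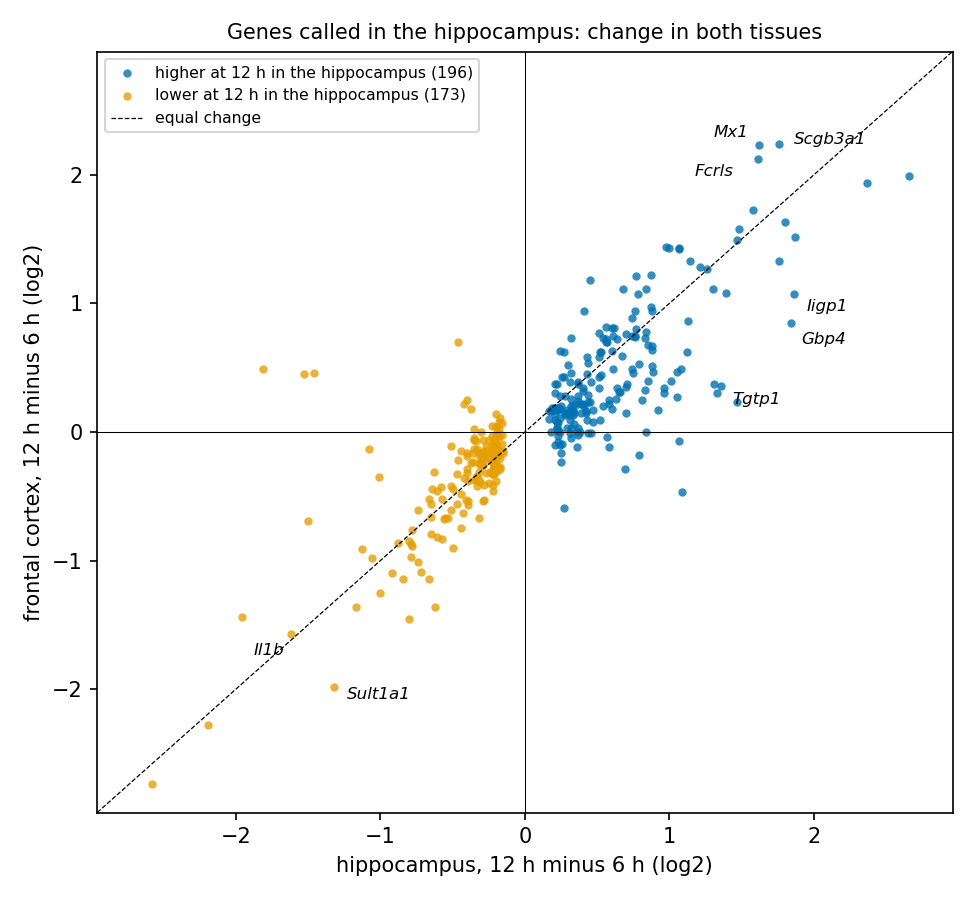
Change between 6 h and 12 h after LPS (log2) in hippocampus (x axis) and frontal cortex (y axis) for the genes called in the hippocampus and tested in both tissues (196 higher, blue; 173 lower, orange); the dashed line marks equal change. Most points lie in the quadrants of equal sign, and Gbp4, Iigp1 and Tgtp1 lie below the line.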

How the data were processed

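Poly(A)-selected, strand-marking RNA-seq libraries (paired 150 bp reads, per the labels' protocols) from hippocampus and frontal cortex were analysed as the counts per gene that the authors deposited for 30 libraries. The submitters' processing notes name Trim Galore 0.4.1, FastQC, STAR 2.6.0a, DESeq2 and the builds GRCm38 and mm10; which tool counted reads, with which strand setting and annotation, is not given in the sources used here. Of 48820 genes listed, 48144 (98.6%) were given a symbol from GENCODE M21, and counts without a symbol were at most 0.261% of a library. 0 columns lacked a sample.

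Genes were kept by edgeR's filterByExpr (minimum count 10, minimum total 15). All 15 hippocampal libraries entered 1 robust quasi-likelihood fit (edgeR 4.0.16, R 4.3.3, TMM factors 0.971 to 1.018, 11 residual degrees of freedom, common biological coefficient of variation 0.0691), with the contrast 12 h minus 6 h and Benjamini-Hochberg adjustment over 17289 genes. SE is the log2 difference divided by the square root of F. The frontal cortex was fitted in the same way, and the difference between tissues in 1 fit of all libraries. CPM are scaled by TMM factors, except sums over marker lists, which use library totals. Replicates are different mice, so p-values cover the spread between mice. Hippocampal totals of 18910055 to 29896427 counts limit the precision for low genes.

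The mouse codes pair the tissues (same animal): deviations from the group means correlated by -0.021 to 0.349 over 12229 genes in 8 mice (median 0.166, 4 over 0.1). The compared groups hold different mice, so no mouse pairs them. Members, gene lists, motifs and tests were chosen with earlier results of these data known. Named genes are the 15 largest rises and falls among called genes of at least 1 log2 CPM without overlap of the groups, the 5 smallest adjusted p in each direction, up to 5 members of each list, and 12 genes always given (Arntl, Ccl2, Cxcl10, Dbp, Fkbp5, Gfap, Il1b, Lcn2, P2ry12, Per1, Sele and Tnf); predicted genes were left out. Other genes are named as members of a list, and those of the closing section were picked after their values were seen. Alternatives were DESeq2 1.42.0, limma 3.58.1 (voom), other size factors and filters, other sets of libraries, each library left out and the mouse as a random effect (by limma-voom). The scripts were tested on simulated counts. Some genes are not reported here. Sequences are from RefSeq's table of promoters.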

Additional observations from a re-analysis of the deposited data

Results flagged for a closer look

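In groups of 4, a single library can stand far from the other 3. Of 186 groups (gene by time) examined, 12 did so by Dixon's criterion at 95%, where chance gives about 1 in 20; each value below is the gap to the nearest library divided by the range of the group. Among choroid plexus genes, Ttr stood apart in A240 at 6 h (341 CPM, 0.956) and in A261 at 12 h (2230 CPM, 0.897). A259 was the highest 12 h library for Gfap (601 CPM, 0.857) and Nid1 (9.78 CPM, 0.918) and the lowest for Nfkbia (19.7 CPM, 0.876). Among interferon-related genes, Ifit1 was lowest in A242 (4.94 CPM, 0.844) and Ifit3 in A240 (11.5 CPM, 0.977) at 6 h. Ccl12 was highest in A242 at 6 h (1.73 CPM, 0.889) and lowest in A261 at 12 h (3.51 CPM, 0.842). The other 3 were at 6 h: Tnf highest in A243 (0.962 CPM, 0.898), C1qb highest in A242 (42.1 CPM, 0.927) and Vwf lowest in A241 (15.5 CPM, 0.975). In the 7 called genes among these (Ifit1, Ifit3, Ccl12, C1qb, Gfap, Vwf and Nid1) the 6 h and 12 h libraries did not overlap.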

How the results depend on the processing

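The 197 higher and 173 lower genes depended on the fit. The DESeq2 test gave 280 and 283, limma-voom 320 and 340, no filter 519 and 375, and both tissues in 1 fit 75 and 77. With the mouse as a random effect (the replicate block across tissues) 69 and 82 were called; it adds the cortical libraries to the fit. Leaving out A261 and A240 gave 56 and 55, and leaving out A258 as well 74 and 44; both were chosen after seeing the data. Leaving out each compared library in turn gave 88 to 227 higher and 84 to 192 lower, the lowest without A240.

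The 33 genes at least 2-fold higher became 16 without A261 and A240 (also 16 without A258 too), 19 with the block, 111 with no filter and 21 to 42 without 1 library. The 14 at least 2-fold lower became 25 by DESeq2, 7 without the 3 libraries, 9 with both tissues, 9 with the block, 33 with no filter and 9 to 17 without 1 library. The difference between tissues, called for 0 genes by edgeR, gave 6 and 5 by DESeq2 and 0 to 1 higher without 1 library. The 210 cortical calls became 489 by DESeq2, 674 with both tissues, 652 with the block and 95 to 291 without 1 library. The cause of these shifts was not tested; fits with fewer libraries also have fewer replicates.

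Over the 93 genes followed in the 19 alternatives (1765 values), 292 lost the call, 14 gained it and 0 called changes reversed. Ttr, which was not called, went from 2.52 to -0.13 on the log2 scale without A261 and to -0.16 without A261, A258 and A240.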

Other observations

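Further changes, stable and less stable, are given here, picked after their values were seen. Of the genes called, 20 higher and 24 lower kept their call in all 19 alternative fits. Rtp1, a chaperone known for carrying olfactory receptors to the cell surface, had the largest called fall: 4.54, 5.63, 3.52 and 3.37 CPM at 6 h and 0.779, 0.646, 0.587 and 0.857 CPM at 12 h, a log2 difference of -2.58 ± 0.35 (edgeR adjusted p = 0.00119). In the cortex it changed by -2.74, and the saline hippocampus averaged 10.5 CPM.

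The genes that follow, apart from Fn1, belong to no list, and they stand for no group. Cbs, cystathionine beta-synthase, fell by 0.56 and Idh2, the mitochondrial isocitrate dehydrogenase, by 0.41 on the log2 scale, and Ppp1r3c, which targets a phosphatase to glycogen, by 0.39. Fam107a, an actin-associated gene of astrocytes and neurons, stood at 658, 701, 661 and 678 CPM at 6 h and at 491, 489, 495 and 480 CPM at 12 h. Nid1, nidogen, rose by 0.70 and Hspg2, perlecan, by 0.71 (edgeR adjusted p = 0.00746, and 0.076 without A261 and A240). Fn1, fibronectin, went from 60.0 ± 3.51 to 111 ± 30.6 CPM (SD, n = 4), with A259 at 154 CPM, and its adjusted p of 0.0266 became 0.0514 to 0.0853 without A260, A240, A241, A242 or A243 and 0.0503 with the replicate block. Cd274, which encodes the inhibitory ligand PD-L1, rose by 0.96 (edgeR adjusted p = 0.00169). Over the alternatives its adjusted p was at most 0.174, in the limma-voom fit with the replicate block.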
